A study of Homo sapiens with 4 samples.

Results

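The 10 genes examined here were CYP19A1 (aromatase) and 9 transcription factors of granulosa cells: NR5A1, NR5A2, FOXL2, GATA4, GATA6, NR0B1, NR2F2, WT1 and RUNX1. They were chosen by gene name, with earlier results of these data known, and are 10 of the 33880 genes in the expression table. The cells were KGN, an established line from a human granulosa cell tumor with aromatase activity. They were infected with a lentivirus carrying full-length TOX3, a nuclear HMG-box protein (LV-TOX3, 2 libraries), or with the control lentivirus (LV-CON, 2 libraries). Virus was diluted 1 to 200, and both groups were selected with 2 mg/ml puromycin for 2 passages and grown in 10% serum. Virus dilution, drug and serum were thus shared, and the TOX3 insert was the stated difference. The paper names the plasmid that received TOX3 and does not say if the control virus had the same backbone. The sources describe infected and selected cultures, name no clone, and speak of duplicate and independent samples without stating if libraries sharing a group derive from different cultures. The p-values thus reflect variation among the sequenced samples alone, and that variation may be technical. As the labels say, TOX3 reads were found only after TOX3 infection, 1586 and 1428 of them, against 0 in each control library.

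Aromatase carries out the last step of estrogen synthesis, the conversion of androgens to estrogens. In the ovary it is made mainly by granulosa cells of growing follicles. Follicle-stimulating hormone raises cAMP in these cells, and the CYP19A1 promoter used in the ovary is known to bind CREB-type factors at a cAMP response element and NR5A receptors at an extended half-site. The other genes serve this cell type in distinct ways. NR5A1 (SF-1) and NR5A2 (LRH-1) are orphan nuclear receptors that activate steroidogenic genes, and NR0B1 (DAX-1) represses NR5A1. FOXL2 is a forkhead factor that maintains granulosa identity, and KGN is known to carry the FOXL2 missense change typical of adult granulosa tumors. GATA4 and GATA6 are zinc finger factors with overlapping roles in the gonad, WT1 acts early in gonad formation, RUNX1 marks fetal granulosa precursors in the mouse, and NR2F2 (COUP-TFII) is best known from the interstitial cells of the gonad.

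The CYP19A1 gene has many alternative first exons, each with its own start. RefSeq (GRCh38.p14) gave 7 windows of 300 bases for it, from 250 bases before a start to 50 after. Of these windows 1 held the NR5A extended half-site CAAGGTCA, and it is shown first because it carries the elements through which the factors described here are known to act. It lies at chr15:51242980-51243279 on the minus strand and is the window nearest to the coding part of the gene. Capitals mark CAAGGTCA, 132 bases before the start, and CGTCA, which is the CRE half-site TGACG on the opposite strand, 207 bases before it. The second window, at chr15:51243196-51243495 on the minus strand, overlaps the first, shares that CRE half-site, and has the forkhead letters TAAACA in capitals. The third, at chr15:51278111-51278410 on the minus strand, belongs to a more distant start and is shown for contrast, since none of the 5 motifs searched was found in it. The fourth is the window of GATA6, the transcription factor with the smallest p in the comparison, at chr18:22169339-22169638 on the plus strand. Its capitals TGTTTA are the forkhead letters TAAACA on the opposite strand.
CYP19A1 proximal: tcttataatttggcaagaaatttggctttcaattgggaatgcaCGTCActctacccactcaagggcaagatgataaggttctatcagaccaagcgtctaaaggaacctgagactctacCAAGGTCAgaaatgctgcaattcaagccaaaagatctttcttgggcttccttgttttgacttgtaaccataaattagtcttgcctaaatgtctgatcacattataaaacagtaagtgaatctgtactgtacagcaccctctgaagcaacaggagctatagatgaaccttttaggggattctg
CYP19A1 overlapping: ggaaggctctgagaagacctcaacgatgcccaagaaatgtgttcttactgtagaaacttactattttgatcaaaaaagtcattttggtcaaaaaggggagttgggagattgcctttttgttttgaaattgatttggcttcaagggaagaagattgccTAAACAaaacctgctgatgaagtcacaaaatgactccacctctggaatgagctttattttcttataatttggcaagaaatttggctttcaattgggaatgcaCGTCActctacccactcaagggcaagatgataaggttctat
CYP19A1 distal: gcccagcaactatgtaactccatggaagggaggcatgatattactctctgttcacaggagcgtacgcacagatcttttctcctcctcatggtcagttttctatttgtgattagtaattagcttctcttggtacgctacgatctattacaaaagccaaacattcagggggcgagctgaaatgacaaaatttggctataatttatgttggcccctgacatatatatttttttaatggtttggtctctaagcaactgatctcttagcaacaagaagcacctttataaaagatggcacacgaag
GATA6: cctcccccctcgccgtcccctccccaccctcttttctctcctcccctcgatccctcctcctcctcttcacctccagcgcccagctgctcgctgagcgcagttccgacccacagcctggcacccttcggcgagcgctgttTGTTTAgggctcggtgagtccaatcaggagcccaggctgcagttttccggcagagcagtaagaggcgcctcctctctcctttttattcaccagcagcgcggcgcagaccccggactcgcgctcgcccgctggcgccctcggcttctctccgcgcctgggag

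The motifs were searched as exact letters on both strands, and a match is a description of the sequence only. Other spellings of a motif were not searched, so a window without a match may still hold a related site. Over 35116 windows of the same length, the NR5A letters CAAGGTCA were found in 450 windows, or 1.28%. The CRE half-site TGACG was found in 24.6% of windows. The GATA letters AGATAA were found in 10.3%. The forkhead letters TAAACA were found in 12.3%. The RUNX letters TGTGGT were found in 13.1%. CAAGGTCA was thus the rare motif of the 5, while the others turned up in a sizeable share of all windows. The search letters do not overlap one another in the proximal CYP19A1 window. A further CYP19A1 window, at chr15:51288289-51288588 on the minus strand, held the GATA letters AGATAA at 2 places, at 185 and 160 bases before its start. The letters TGATAA, which differ from AGATAA in the first base only, stand in the proximal and overlapping CYP19A1 windows and were not counted. FOXL2 held TGACG at 2 places in its window, at 233 and 36 bases before its start. The 2 windows of NR5A2 held AGATAA at 2 places, TGACG at 1 and TAAACA at 1. WT1 had the CRE half-site and the forkhead letters in 1 of its 4 windows, and NR2F2 had the forkhead letters in 1 of its 2 windows. No window of GATA4 was searched. The RPKM table sums reads over all starts of a gene, so which of the 7 CYP19A1 starts was in use cannot be read from it. The values below therefore concern aromatase RNA as a whole.

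The libraries held between 16403371 and 17858746 reads, recovered from the RPKM values as deposited (RPKM divides the reads of a gene by its length and by library depth). Of 13 granulosa markers, 8 had at least 1 RPKM in every library. The summed level of all 13 was 604.6 and 699.7 RPKM in LV-CON, against 612.3 and 744.7 in LV-TOX3. Most of it was the keratin KRT18 at 468.8 to 621.6. The markers AMHR2 (0.0159 to 0.147 RPKM), HSD17B1 and NR5A2 were low. HSD17B1 had 0.3185 and 0.277 RPKM in LV-CON, against 0.365 and 0.5495 in LV-TOX3. Its values imply a gene length of 5658 bases, against 1951 exon bases in GENCODE v44, and its level depends on the length used. INHA, the inhibin alpha chain, had 0.703 to 1.09. The 8 markers at 1 RPKM or more in every library thus include the keratins KRT8 and KRT18. AMHR2, HSD17B1, NR5A2, INHA and WT1 did not reach that level in every library. Of the Sertoli list 6 of 8 genes were in the table, with a summed level of 10.8 and 12.4 RPKM in LV-CON, against 8.99 and 10.4 in LV-TOX3. SOX9, which opposes FOXL2 in the gonad, had 6.30 and 7.27 RPKM in LV-CON, against 4.35 and 5.02 in LV-TOX3, AMH had 4.40 to 5.33, DMRT1 0.0693 or less, and FGF9 was at 0. Theca and Leydig genes summed to 7.56 and 10.5 RPKM in LV-CON, against 6.12 and 12.3 in LV-TOX3 over 6 of 7 listed. The highest of them was HSD3B1, with 4.22 and 6.555 RPKM in LV-CON, against 3.41 and 9.51 in LV-TOX3. GLI1 followed at 2.08 to 3.20 RPKM, while INSL3 was at 0 and CYP17A1 at 0.0163 or less. Oocyte genes (6 of 9 in the table) summed to 0.434 RPKM or less and adrenal genes (3 of 5) to 0.136 or less. The 6 genes of other epithelium summed to 7.03 to 10.0 RPKM, and the 9 of endothelium, blood and stroma to 1331 to 1441, nearly all of it the collagen COL1A1. The part of these markers in the results below was not tested.

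In control cells most of these genes were well expressed. Ordered by mean level in LV-CON, GATA4 stood first at 26.6 ± 0.572 RPKM (SD, n = 2), followed by NR5A1 at 21.5 ± 0.412, NR2F2 at 14.3 ± 0.851, FOXL2 at 10.7 ± 0.284, RUNX1 at 7.21 ± 0.271, GATA6 at 6.59 ± 0.0539 and CYP19A1 at 5.67 ± 2.00. WT1 followed far below at 0.9901 ± 0.149 RPKM, NR5A2 at 0.130 ± 0.0478, and NR0B1 had 1 read in 1 of the LV-CON libraries. The values of neighbours in this order did not overlap between genes except for CYP19A1, whose LV-CON libraries spanned the level of GATA6 and reached into that of RUNX1. Over the mean of all 4 libraries, GATA4 was at or above 95.5% of the 33880 genes in the table, NR5A1 94.4%, NR2F2 91.3%, FOXL2 88.6%, CYP19A1 85.2%, GATA6 84.8% and RUNX1 84.2%. WT1 stood at 63.6%, NR5A2 at 37.7% and NR0B1 at 19.3%. In LV-TOX3 the means of the first 4 kept their order, and CYP19A1 (10.6 ± 4.53 RPKM) and GATA6 (9.17 ± 0.599) came before RUNX1 (7.81 ± 0.186). There the CYP19A1 libraries spanned the levels of FOXL2, GATA6 and RUNX1.

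**Figure D1:**
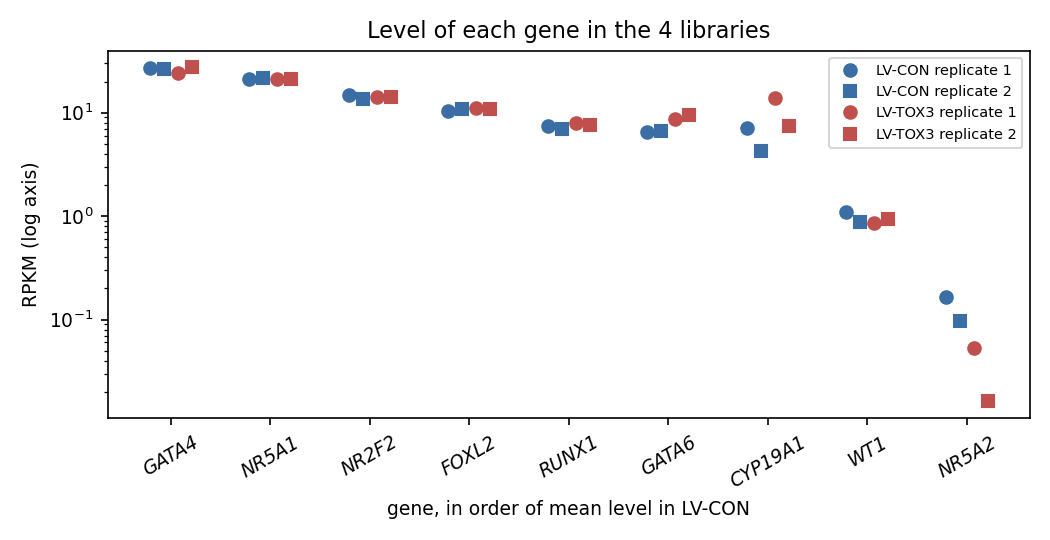
RPKM (log axis) of 9 of the 10 genes in each of the 4 libraries, in order of mean level in LV-CON. Blue points are LV-CON and red points LV-TOX3, circles are replicate 1 and squares replicate 2. NR0B1, with 1 read or 0 in each library, is left out. GATA4 and NR5A1 lie above 20 RPKM in every library, CYP19A1 spans 4.25 to 13.8, and NR5A2 lies below 0.2 in every library.

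The comparison of LV-TOX3 with LV-CON asked whether aromatase RNA and the factors around it differed after TOX3 was introduced. CYP19A1 and GATA6 had the highest positive differences of the 10 genes, while NR5A1, FOXL2, GATA4 and NR2F2 had fitted log2 fold changes between -0.05 and 0.04. Values were compared with limma on log2(RPKM + 0.1), which understates changes of low genes, over the 14184 genes whose mean was at least 0.5 RPKM. Of the 10 genes 8 passed that filter, and NR5A2 and NR0B1 did not. At an adjusted p under 0.05 limma called 0 of these 8, against a background of 0.00705% of all genes tested, which is TOX3 alone, and limma-voom run on recovered reads with no replicate term also called 0. With the replicate number as a term, though no source ties it to a batch, limma called 0 and limma-voom called 2, CYP19A1 and GATA6, among 613 of all genes. At an unadjusted p under 0.05, 1 gene (GATA6) was higher, where 3.07% of all genes tested were, and 0 were lower, where 3.73% were. Both LV-TOX3 libraries lay above both LV-CON libraries for 4 of the 8, CYP19A1, FOXL2, GATA6 and RUNX1, against 17.0% of all genes tested, and below for 0 of the 8, against 20.6%. The 8 genes had 4 positive and 4 negative log2 fold changes with a median of 0.02, beside a median of -0.01 and 46.8% positive over all genes tested. In this bulk RNA, fewer cells of a type and less RNA per cell cannot be told apart.

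CYP19A1 (ENSG00000137869, chromosome 15 of hg38 from 51208057 to 51338601, minus strand, GENCODE v44) had 1061 (replicate 1) and 640 reads (replicate 2) in LV-CON, against 2023 and 1020 in LV-TOX3. These are 7.08 and 4.25 RPKM in LV-CON, against 13.8 and 7.37 in LV-TOX3. Both LV-TOX3 values lay above both LV-CON values, but LV-TOX3 replicate 2 stood close to LV-CON replicate 1. The ratio of the group means was 1.87, and the log2 fold change was 0.87 with a 95% interval from -0.10 to 1.83 (standard error 0.37, adjusted p = 0.734 from limma). In this fit, which has no replicate term, the interval ran from a slightly lower level to one several fold higher. The call changed with limma-voom and the replicate number as a term (log2 fold change 0.89, adjusted p = 1.28e-21). That fit left few degrees of freedom, so its p-value rests largely on the spread of other genes. The call did not change with that term in limma (adjusted p = 0.182) or with limma-voom without it (adjusted p = 0.644).

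Within both groups the aromatase RNA of replicate 1 exceeded that of replicate 2, by 0.72 on the log2 scale in LV-CON, against 0.89 in LV-TOX3. A larger difference between the libraries of a group was found for 7.35% of genes tested in LV-CON and for 5.64% in LV-TOX3. Taken by number, LV-TOX3 was 1.94 times LV-CON for replicate 1 and 1.74 times for replicate 2. Only 3.64% of genes tested had a larger absolute log2 fold change than CYP19A1, yet 88.2% had a smaller standard error. Without LV-TOX3 replicate 1 its log2 fold change was 0.42, without LV-CON replicate 2 it was 0.50, without LV-CON replicate 1 it was 1.23, and without LV-TOX3 replicate 2 it was 1.31. The immediate early gene EGR1, a zinc finger factor, also differed in both groups between the libraries, with 22.2 and 6.89 RPKM in LV-CON, against 16.8 and 5.28 in LV-TOX3, and its part in the CYP19A1 values was not tested. Its groups overlapped, unlike those of CYP19A1.

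GATA6 (ENSG00000141448, chromosome 18 from 22169589 to 22202528, plus strand) had 459 and 467 reads in LV-CON, against 601 and 621 in LV-TOX3. These are 6.55 and 6.63 RPKM in LV-CON, against 8.75 and 9.60 in LV-TOX3. The LV-CON libraries nearly coincided, and both LV-TOX3 libraries stood clear above them. The ratio of means was 1.39, and the log2 fold change was 0.47 with a 95% interval from 0.24 to 0.70 (standard error 0.09, adjusted p = 0.655 from limma). A smaller p was found for 0.451% of genes tested, and the adjusted p did not pass the threshold. With each library left out in turn the log2 fold change ran from 0.40 to 0.54. A pair of antisense genes shares exon bases with GATA6 in GENCODE, and whether reads were counted by strand is not given in the sources used here. GATA6-AS1 shares 94 of the 3799 exon bases and had 1.17, 1.20, 1.23 and 1.10 RPKM in the same library order. ENSG00000266283 shares 321 bases and had 0.293, 0.364, 0.746 and 0.475 RPKM. Both lay far below GATA6 in every library.

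GATA4 (ENSG00000136574), which binds the same DNA letters as GATA6, had 27.1 and 26.2 RPKM in LV-CON, against 24.1 and 27.4 in LV-TOX3. The LV-TOX3 libraries lay on either side of the LV-CON libraries. The log2 fold change was -0.05, with a 95% interval from -0.28 to 0.18 (adjusted p = 0.943 from limma). Within each library the ratio of GATA4 to GATA6 RPKM was 4.13 and 3.96 in LV-CON, against 2.76 and 2.85 in LV-TOX3. GATA4 was the more abundant of the pair in all 4 libraries, by a smaller factor in both LV-TOX3 libraries.

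**Figure D2:**
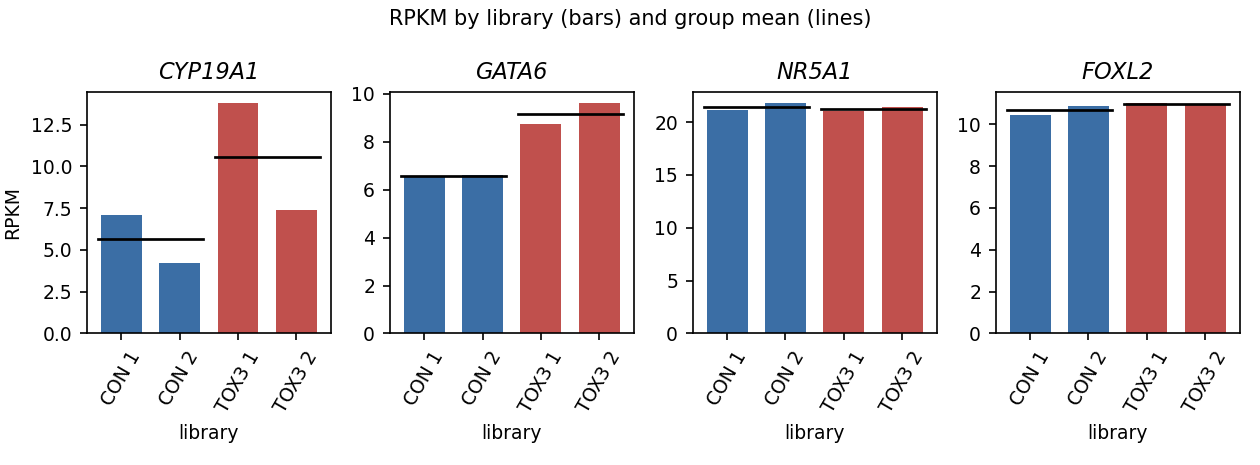
RPKM of CYP19A1, GATA6, NR5A1 and FOXL2 in each library (bars, axes from 0, LV-CON blue and LV-TOX3 red), with the mean of each group of 2 libraries as a black line. The CYP19A1 bars differ within both groups, the GATA6 bars are 6.55 and 6.63 in LV-CON, against 8.75 and 9.60 in LV-TOX3, and the NR5A1 bars all lie between 21.01 and 21.75.

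NR5A1 (ENSG00000136931, chromosome 9 from 124481236 to 124507420, minus strand) is the receptor for which the half-site in the proximal aromatase window is known. It had 21.16 and 21.75 RPKM in LV-CON, against 21.01 and 21.38 in LV-TOX3, from 1200 to 1329 reads per library. The groups overlapped, and all 4 values lay within 1 RPKM of each other. The log2 fold change was -0.02, with a 95% interval from -0.19 to 0.16 (adjusted p = 0.979 from limma), so a difference larger than that interval allows was not seen. Against this near constant level, the ratio of CYP19A1 to NR5A1 RPKM was 0.335 and 0.195 in LV-CON, against 0.655 and 0.345 in LV-TOX3. The spread of the ratio within each group followed that of CYP19A1.

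NR5A2 (ENSG00000116833, chromosome 1 from 200027614 to 200177420, plus strand), the receptor related to NR5A1 that also activates aromatase, had 22 and 13 reads in LV-CON, against 7 and 2 in LV-TOX3. These are 0.164 and 0.0963 RPKM in LV-CON, against 0.0532 and 0.0161 in LV-TOX3. Both LV-TOX3 values lay below both LV-CON values, at a level under the filter. Over the summed reads (35 and 9, scaled by library totals) LV-TOX3 was at 0.271 of LV-CON, with an exact 95% interval of 0.115 to 0.575 that covers counting error only and not the spread between libraries. Fitted without the filter, the log2 fold change was -0.77 with a 95% interval from -1.73 to 0.19 (adjusted p = 0.781 from limma). The size of this value depends on the pseudocount: it was -0.13 with 1 RPKM added and -1.74 with 0.01. On the recovered reads limma-voom gave -1.92 (adjusted p = 0.812), and -1.82 with the replicate number as a term (adjusted p = 0.164). NR5A1 exceeded NR5A2 in every library, by 129.1 and 225.8 times in LV-CON, against 395.1 and 1325 times in LV-TOX3, and the last of these ratios rests on 2 reads of NR5A2.

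NR0B1 (ENSG00000169297, chromosome X from 30304206 to 30309390, minus strand), the repressor of NR5A1, had 1 read in replicate 1 of each group and 0 in replicate 2. No difference was detectable at this depth, and no fold change is given.

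FOXL2 (ENSG00000183770, chromosome 3 from 138944224 to 138947137, minus strand) had 10.46 and 10.86 RPKM in LV-CON, against 10.99 and 10.97 in LV-TOX3. Both LV-TOX3 libraries lay above both LV-CON libraries, but by little, with a ratio of means of 1.03. The log2 fold change was 0.04, with a 95% interval from -0.15 to 0.24 (adjusted p = 0.947 from limma). The ratio of CYP19A1 to FOXL2 RPKM was 0.677 and 0.391 in LV-CON, against 1.253 and 0.672 in LV-TOX3, so the groups overlapped in this ratio. Its lower LV-TOX3 value, of replicate 2, was just below that of LV-CON replicate 1.

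RUNX1 (ENSG00000159216, chromosome 21 from 34787801 to 36004667, minus strand) had 7.398 and 7.015 RPKM in LV-CON, against 7.94 and 7.68 in LV-TOX3. Both LV-TOX3 libraries stood above both LV-CON libraries, with a ratio of means of 1.08. The log2 fold change was 0.12 with a 95% interval from -0.10 to 0.33 (standard error 0.08, adjusted p = 0.845 from limma). NR2F2 (ENSG00000185551, chromosome 15 from 96325938 to 96340263, plus strand) had 14.9 and 13.7 RPKM in LV-CON, against 14.1 and 14.3 in LV-TOX3. The LV-TOX3 values lay between the LV-CON values. The log2 fold change was -0.01, with a 95% interval from -0.22 to 0.20 (adjusted p = 0.991 from limma).

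WT1 (ENSG00000184937, chromosome 11 from 32387775 to 32435564, minus strand) was low, with 80 and 65 reads in LV-CON, against 61 and 63 in LV-TOX3. These are 1.10 and 0.885 RPKM in LV-CON, against 0.852 and 0.934 in LV-TOX3. The groups overlapped. The log2 fold change was -0.13, with a wide 95% interval from -0.78 to 0.52 (adjusted p = 0.9504 from limma). The smallest whole reads that fit its RPKM values imply a gene length of 4113 bases, against 8133 exon bases in GENCODE v44. Reads and length are fixed only up to a shared whole factor, so the true reads and length may both be larger. The length used for WT1, on which its place among the other genes depends, cannot be told from the values. WT1-AS, which shares 47 exon bases with it on the opposite strand, had 0.143 to 0.243 RPKM.

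**Figure D3:**
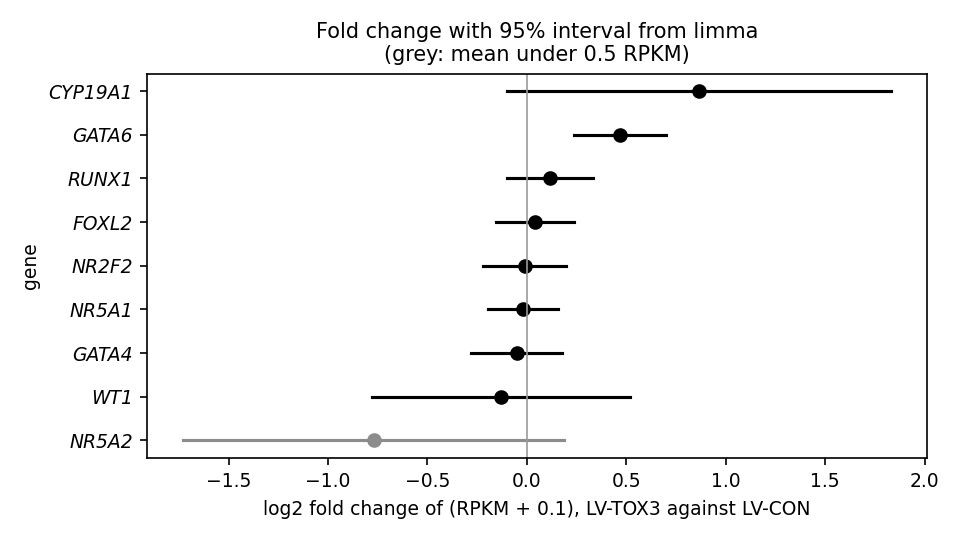
Log2 fold change of LV-TOX3 against LV-CON on the log2(RPKM + 0.1) scale (points) with the 95% interval from limma (lines) for 9 of the 10 genes. Grey marks NR5A2, fitted without the filter on low values. The GATA6 interval, 0.24 to 0.70, lies above 0, and the other 8 intervals include 0.

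The profile of CYP19A1 over the 4 libraries was compared with that of each other gene tested, by the Euclidean distance between centred log2(RPKM + 0.1) values. The 5 nearest genes were AL158166.1 (distance 0.0969), CHI3L1 (0.233), RNA5SP317 (0.243), SNORD123 (0.257) and TMEM88 (0.304), against a median distance of 1.24 over the genes tested. Of these 5, 4 had under 20 reads in every library. CHI3L1, which encodes a secreted chitinase-like glycoprotein, had 456 and 313 reads in LV-CON, against 861 and 396 in LV-TOX3, or 7.54 and 5.14 RPKM and 14.5 and 7.08 RPKM. Unlike CYP19A1, its groups overlapped. Of the transcription factors tested, GATA6 was nearest to CYP19A1 at a distance of 0.978, followed by RUNX1 at 1.06, and GATA4 was farthest at 1.29. Only GATA6, RUNX1, NR2F2, FOXL2 and NR5A1 lay nearer than the median gene. A gene at the same level in all libraries has a distance set by the CYP19A1 profile alone. The nearly level NR2F2, FOXL2 and NR5A1, at 1.17, 1.17 and 1.22, lay close to the median. Lying nearer than the median therefore does not show a profile like that of CYP19A1.

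The genes around aromatase were described by lists. In estrogen synthesis and cholesterol delivery, 13 of 16 listed genes were tested, with 8 positive and 5 negative log2 fold changes and a median of 0.10. Of these, 1 was higher and 1 lower at an unadjusted p under 0.05, where 3.07% and 3.73% of all genes tested were, and 0 passed the adjusted p from limma. FDXR, the reductase that feeds electrons to mitochondrial steroid enzymes, had 9.61 and 10.0 RPKM in LV-CON, against 7.66 and 7.44 in LV-TOX3 (log2 fold change -0.37, adjusted p = 0.655 from limma). Both LV-TOX3 values lay below the LV-CON values, opposite in direction to CYP19A1. HSD17B12, a hydroxysteroid dehydrogenase also active on fatty acids, had 5.12 and 4.09 RPKM in LV-CON, against 5.63 and 6.08 in LV-TOX3, with a log2 fold change of 0.35. Its groups did not overlap. The 1 higher gene at the unadjusted threshold was STARD4, a cholesterol carrier. STARD4 had 19.2 and 16.6 RPKM in LV-CON, against 20.7 and 24.2 in LV-TOX3 (log2 fold change 0.32, adjusted p = 0.725 from limma). HSD3B2, which makes progesterone, had a log2 fold change of 0.43. TSPO, a protein of the outer mitochondrial membrane, had 139.4 to 143.8 RPKM. CYP17A1, which makes the androgens that aromatase uses, had at most 1 read in a library.

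Of the cAMP and CREB genes listed as inputs to the aromatase promoter, all 22 were tested. Their log2 fold changes were positive for 19 and negative for 3 (median 0.06), where 46.8% of all genes tested were positive. The list mixes genes with opposite roles in the pathway, so these signs do not give the pathway a direction. The unadjusted p was under 0.05 for 3 higher and 0 lower genes, against 3.07% and 3.73% of all genes tested, and 0 passed the adjusted p from limma. ATF2, a factor that binds cAMP response elements, had 10.8 and 11.2 RPKM in LV-CON, against 13.7 and 14.1 in LV-TOX3 (log2 fold change 0.33, adjusted p = 0.655 from limma). The LV-TOX3 libraries stood clear above the LV-CON libraries. PRKAR2B, a regulatory subunit of protein kinase A, had 6.70 and 4.42 RPKM in LV-CON, against 8.34 and 7.64 in LV-TOX3 (log2 fold change 0.54, adjusted p = 0.725 from limma). As with CYP19A1, its replicate 2 was the lower library of each group. FSHR, the receptor that starts this pathway, had the smallest p of the list, with 5.15 and 5.95 RPKM in LV-CON, against 9.62 and 10.0 in LV-TOX3. CREB1 had 7.05 and 6.88 RPKM in LV-CON, against 7.62 and 8.11 in LV-TOX3, with a log2 fold change of 0.17. GNAS, the stimulatory G protein alpha subunit, and PRKAR1A, another regulatory subunit of the kinase, had the highest levels, 51.7 to 53.7 and 29.1 to 32.9 RPKM, and both overlapped between groups.

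Among coregulators and partners of the NR5A, GATA and FOXL2 proteins, 19 of 22 listed were tested, with 11 positive and 8 negative log2 fold changes and a median of 0.05. At an unadjusted p under 0.05 there were 0 in either direction, and 0 at the adjusted p from limma. CBFB, the partner subunit of RUNX proteins, had 13.9 and 12.8 RPKM in LV-CON, against 14.9 and 15.5 in LV-TOX3, and its log2 fold change was 0.19. Its groups did not overlap, like those of RUNX1. The nuclear receptor corepressor NRIP1, the coactivator NCOA3 and the coregulator PIAS1 had log2 fold changes of 0.20, 0.14 and 0.15. Beta-catenin CTNNB1, among the most abundant of the list, had 40.2 to 44.6 RPKM and overlapped between groups. The repressor NR0B2, related to NR0B1, had 0 RPKM in replicate 1 of both groups and 0.291 and 0.106 in replicate 2 of LV-CON and LV-TOX3.

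Of family members of the transcription factors, 13 of 14 listed were in the table and 8 were tested, with 4 positive and 4 negative log2 fold changes and a median of -0.01. At an unadjusted p under 0.05 there were 0 in either direction, and 0 at the adjusted p from limma. GATA5 had 14 and 39 reads in LV-CON, against 33 and 69 in LV-TOX3, with a log2 fold change of 0.96 with a 95% interval from -0.55 to 2.46. Its replicate 2 was the higher library of each group, and the groups overlapped. GATA2 had 1.13 to 1.45 RPKM, GATA3 0.194 or less, and GATA1 was at 0, so GATA4 and GATA6 had the highest levels of the GATA factors listed. FOXO3 had 9.82 and 10.0 RPKM in LV-CON, against 9.02 and 9.30 in LV-TOX3, with a log2 fold change of -0.11. RUNX2 had 1.48 to 2.03 RPKM, below RUNX1 in every library. NR2F6, the highest relative of NR2F2, had 6.01 to 7.72 RPKM, and NR2F1 had 2.55 to 3.70.

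Other transcription factors of the gonad were 19 of 21 listed in the table and 15 tested, with 9 positive and 6 negative log2 fold changes and a median of 0.04. An unadjusted p under 0.05 was found for 2 higher and 0 lower genes, beside 3.07% and 3.73% over all genes tested, and 0 passed the adjusted p from limma. These 2 were CEBPD and CEBPB, leucine zipper factors of the C/EBP family, of which CEBPB is known from mice to be needed for granulosa cells to become luteal. CEBPD had 9.05 and 7.33 RPKM in LV-CON, against 13.6 and 11.6 in LV-TOX3 (log2 fold change 0.62, adjusted p = 0.655 from limma). CEBPB had 23.9 and 25.8 RPKM in LV-CON, against 29.8 and 31.4 in LV-TOX3 (log2 fold change 0.30, adjusted p = 0.655 from limma). For both genes the groups did not overlap. CITED2, a coactivator partner of WT1 in the early gonad of the mouse, was the highest of the list at 80.5 to 101.1 RPKM, and IRX3 had a log2 fold change of 0.21. The estrogen receptors ESR1 and ESR2 had 0.166 RPKM or less.

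Granulosa products known to be bound or regulated by FOXL2, NR5A1 or GATA4 were 15 in the table and 9 tested, with 3 positive and 6 negative log2 fold changes and a median of -0.08. By the unadjusted threshold of 0.05, 1 (FSHR) was higher and 1 (INHBB) lower, compared with 3.07% and 3.73% of all genes tested, and 0 passed the adjusted p from limma. INHBB, an activin and inhibin beta chain, had 5.26 and 5.63 RPKM in LV-CON, against 4.27 and 2.84 in LV-TOX3 (log2 fold change -0.63, adjusted p = 0.718 from limma). INHBA, the other beta chain, had 16.1 and 15.8 RPKM in LV-CON, against 14.8 and 13.4 in LV-TOX3, with a log2 fold change of -0.18. Follistatin FST, a FOXL2 target that binds activin, had 65.1 to 78.2 RPKM and overlapped between groups. The cholesterol carrier STAR, known to be activated by NR5A1 and repressed by FOXL2, had 5.91 and 4.18 RPKM in LV-CON, against 4.74 and 3.92 in LV-TOX3. CYP11A1, which starts steroid synthesis, had 0.210 to 0.395 RPKM. The listed targets differed in sign among themselves.

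**Figure D4:**
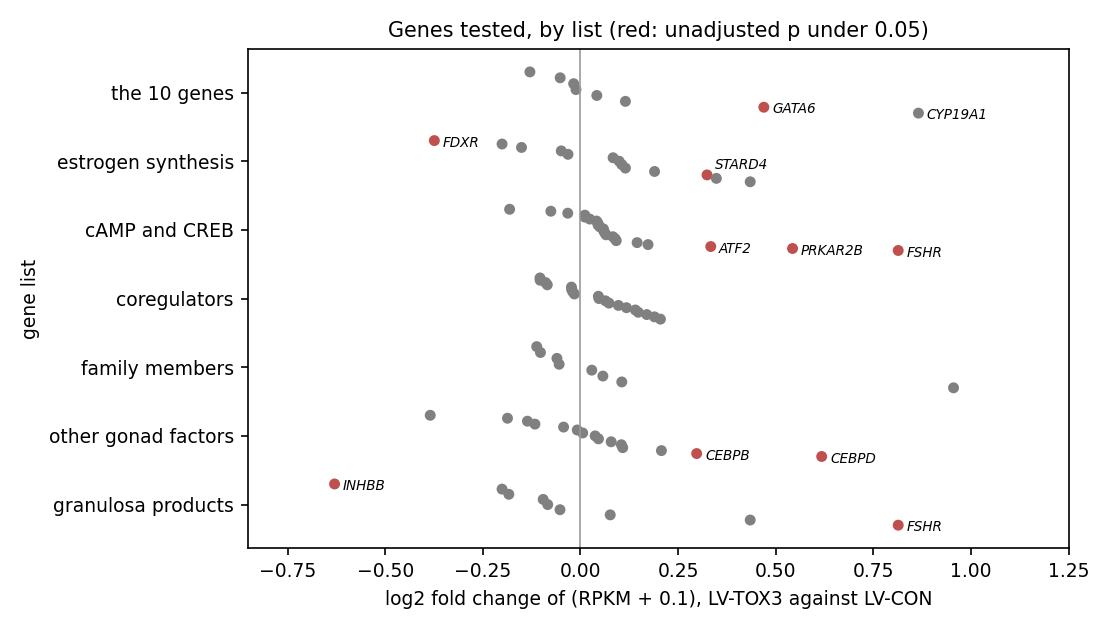
Log2 fold change of LV-TOX3 against LV-CON on the log2(RPKM + 0.1) scale for each gene tested, by list (rows). Points are spread vertically only to separate them, and red marks an unadjusted p under 0.05 from limma. GATA6 is the 1 red point of the 10 genes, 3 of 22 cAMP and CREB genes are red on the positive side, and the coregulator and family rows have 0 red points.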

How the data were processed

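Poly(A) RNA of KGN cells was sequenced with paired reads of 150 nt in 4 libraries, 2 per group, which were grouped and numbered by their labels. The authors used SOAPnuke to filter reads, HISAT2 for alignment to hg38 and RSEM to quantify, deposited RPKM values for 33880 genes, and used limma-voom and ComBat in their own tests. The sources used here do not give the versions of these tools, name the batches or say if ComBat was run on the RPKM values, which could change the spread between libraries. Reads were recovered as the smallest whole numbers that fit the RPKM values with whole gene lengths, which held for 29086 of 29088 genes above 0 (relative tolerance 1e-12), and another 4792 genes were at 0 in all libraries. Library totals came to 17757132 and 17858746 (LV-CON), against 17413376 and 16403371 in LV-TOX3. Where the implied length differs from that of GENCODE, the reads of a gene may be larger by a shared whole factor. Whole reads would not be required of RSEM, so the tool behind the RPKM values is unsure. Libraries of a group differed by more than sampling noise, at 8.11 (LV-CON) and 9.66 (LV-TOX3) chi-square units per degree of freedom, and each was counted as 1 sample.

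The 14184 genes averaging at least 0.5 RPKM were compared on log2(RPKM + 0.1) with limma 3.58.1 (lmFit and eBayes with trend; R 4.3.3), two-sided, without a block, with Benjamini-Hochberg adjustment over all of them. An exact permutation test of 2 against 2 cannot go below p = 0.333. Both the recovery and the limma step were tested on simulated data. The 13 alternatives were other pseudocounts, filters and scalings, the replicate number as a block, limma-voom on recovered reads with and without it, and each library left out. Named are the 10 genes, TOX3, up to 4 genes of smallest p and 2 of highest level in each of 6 pathway lists, markers of 7 lists, and the 5 genes nearest to CYP19A1 in profile. EGR1, SOX9, STAR, CYP11A1, CYP17A1, HSD3B1, GLI1, NR0B2, ESR1, ESR2, GATA1, GATA2, GATA3, RUNX2 and the antisense genes were named after their values were seen. The genes and lists were chosen with earlier results of these data known. GENCODE v44 (hg38) gave the gene coordinates, and windows are from RefSeq. RUNX3 and some other listed genes were not analysed here, and some genes within the naming rule are not reported here. Python 3.11.15 with numpy 2.4.6, pandas 2.3.3 and scipy 1.17.1 was used.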

Additional observations from a re-analysis of the deposited data

How the results depend on the processing

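Over the 13 alternatives, CYP19A1, GATA6, FOXL2, RUNX1 and NR5A2 kept their direction, and the adjusted p of CYP19A1 and GATA6 stayed above 0.05 in all but 1 alternative. That was limma-voom on the recovered reads with the replicate block, where CYP19A1 had a log2 fold change of 0.89 (adjusted p = 1.28e-21) and GATA6 0.48 (adjusted p = 5.02e-04), so 2 of the 10 genes passed instead of 0. That alternative also passed the list and marker genes FSHR (adjusted p = 2.015e-09), CEBPD, PRKAR2B, SOX9, STARD4, INHBB, ATF2, HSD17B12, FDXR and CEBPB (adjusted p = 0.0212), which no other alternative did. The replicate block in limma alone left the CYP19A1 fold change at 0.87 (adjusted p = 0.182) and that of GATA6 at 0.47 (adjusted p = 0.209). No source says that the numbers mark a shared batch. Across genes tested, the replicate 1 minus replicate 2 difference had a correlation of 0.19 between the groups, and 2 pairs are too few to show pairing. With the block few degrees of freedom were left, so the p-values of those fits rest largely on the spread of other genes. At an unadjusted p under 0.05, 2 of the 10 genes were higher with the replicate block, with limma-voom and with limma-voom and the block, and 1 to 2 with a library left out (2 without LV-TOX3 replicate 2). Each time the second was CYP19A1.

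Over all genes, the adjusted p called 0 with a pseudocount of 0.01 RPKM, 0 without a filter, 613 with limma-voom and the replicate block, and 0 to 0 with a library left out. At an unadjusted p under 0.05, 897 genes were higher and 863 lower without a filter, 765 and 992 with the replicate block, and 981 and 1057 with limma-voom and the block. With a library left out, 205 to 436 were higher and 319 to 473 lower. Small values of several factors changed sign: quantile normalization gave 0.0008 for NR5A1 and 0.0018 for NR2F2, and with a library left out the log2 fold change ran from -0.0370 to 0.0020 for NR5A1, -0.1437 to 0.0397 for GATA4, -0.0718 to 0.0488 for NR2F2 and -0.2692 to 0.0102 for WT1. The cause of these changes was not tested. A left-out library leaves 1 sample in its group, which is then assumed to vary like the other group. Depth limits NR5A2 (35 and 9 reads in the groups), NR0B1 and WT1.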
